A study of Mus musculus with 6 samples.

Results

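The TRIM genes are a large family of ubiquitin ligases, here all genes whose symbol is Trim followed by a digit. A total of 58 of the 18193 genes measured met this rule, each read from whichever of its probe sets had the highest mean signal on the 6 arrays. Gene expression was measured on Affymetrix arrays of fibroblasts cultured from mouse embryos. The cells were of the C57BL/6 strain, from embryos of both sexes pooled at 14 days of gestation, and all grew in the same medium with 10% serum. There were 3 arrays of wild-type cells (MEF-WT) and 3 of cells labelled as knockouts for both abl and arg (MEF-DKO), the genes Abl1 and Abl2 of the Abl tyrosine kinases. Nothing in the labels tells if embryos or cultures differed between the arrays of a group, or if the knockout cells are 1 clone. The p-values thus rest on the spread among these arrays alone, and that spread could be technical. The stated aim was the role of the Abl kinases in transcription, and each comparison sets the arrays labelled knockout against wild type.

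A TRIM protein carries a tripartite motif: a RING finger, which recruits the ubiquitin-conjugating enzyme, then B-box zinc fingers and a coiled coil. The domain that follows differs between subfamilies and chooses the target, such as the SPRY domain of the antiviral members, the NHL repeats of the RNA-binding members, or the PHD finger and bromodomain of the chromatin-bound members. Many antiviral TRIM genes are induced by interferon, and in fibroblasts they act on the sensing of viral RNA and on incoming retroviruses.

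The array medians were 13.4 to 14.7, and 42 of the 58 TRIM genes had a group mean above the median of all values, 14.0. The targeted genes were not clearly lower on arrays labelled knockout: the mean signal of Abl1 was 184.8 in wild type and 169.8 there, and that of Abl2 was 256.1 and 254.1 (limma adjusted p = 0.0929 and 0.874). Where these probes lie relative to the deleted parts was not analysed here, so each direction is that of the label. Over all genes 24.2% rose and 35.5% fell past a limma adjusted p of 0.05, the threshold also used for the markers that follow. Of 11 fibroblast markers 9 were higher on arrays labelled knockout, with summed signals of 7798 to 8452 in wild type and 19735 to 20725 there. Pdgfra (9.99), Postn (7.15), Thy1 (8.22) and Lum (4.81) were near the floor in wild type, and only the last pair stayed dim in the other group. Of 6 epithelial markers 2 fell, Epcam and Krt8, the latter under the median signal in both groups (13.1 and 9.33). None of 5 endothelial markers passed. Of 10 leukocyte markers 2 rose, Cd14 from 99.9 to 400.8 and Cd68 from 19.3 to 41.0, and 1 fell, Laptm5. Csf1r was at 34.5 and 30.3, and Ptprc, Tyrobp, Adgre1, Itgam and Aif1 had group means of 2.59 to 4.38. The calls of Vim, Epcam, Krt8 and Laptm5 did not hold under all scalings described below, with Laptm5 at 0.078 after scaling on poly-A spikes. In such bulk RNA, fewer cells of a type and less RNA per cell cannot be told apart.

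Differences are given as labelled knockout minus wild type on log2(signal + 16), a scale that understates the change of a dim gene. Of the 58 TRIM genes, 15 rose and 23 fell past an adjusted p of 0.05 (limma, Benjamini-Hochberg over all genes), which is 65.5% of them. Over all genes 59.7% passed, 24.2% as rises and 35.5% as falls, so the share of TRIM genes that passed was near the background. With a difference of at least 2-fold added, 4 TRIM genes rose (Trim44, Trim39, Trim30d and Trim2) and 6 fell (Trim14, Trim27, Trim71, Trim59, Trim12c and Trim30a), against 7.0% and 8.77% of all genes; together they are 17.2% of the TRIM genes, against 15.8% of all genes. The 3 arrays of each group did not overlap for 41 of the 58, or 70.7%, and for 64.7% of all genes. The median difference was -0.058 over the TRIM genes and -0.031 over all genes.

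The balance of rises and falls depended on how the arrays were scaled. Rises were 39.5% of the TRIM calls as deposited, 27.9% with each array centred on its median, 73.8% after scaling on the poly-A spikes, RNAs added before labelling, and 23.5% after scaling on the hybridization spikes. Over all genes these shares were 40.6%, 32.1%, 76.4% and 21.4%, close to those of the TRIM genes. Across the scalings, 23 of the 38 calls kept their direction and passed under all 4 other scalings, 12 of them rises and 11 falls. The 12 were Trim44, Trim39, Trim30d, Trim2, Trim13, Trim8, Trim63, Trim11, Trim41, Trim12a, Trim7 and Trim16. The 11 were Trim14, Trim27, Trim71, Trim59, Trim12c, Trim30a, Trim34a, Trim47, Trim37, Trim6 and Trim68, where Trim34a stands for 1 of its probe sets and its other rose by 1.10. Every one of the 10 genes changed at least 2-fold is among these 23. How often the calls of all genes held under all scalings was not analysed here, so these counts have no background.

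**Figure D1:**
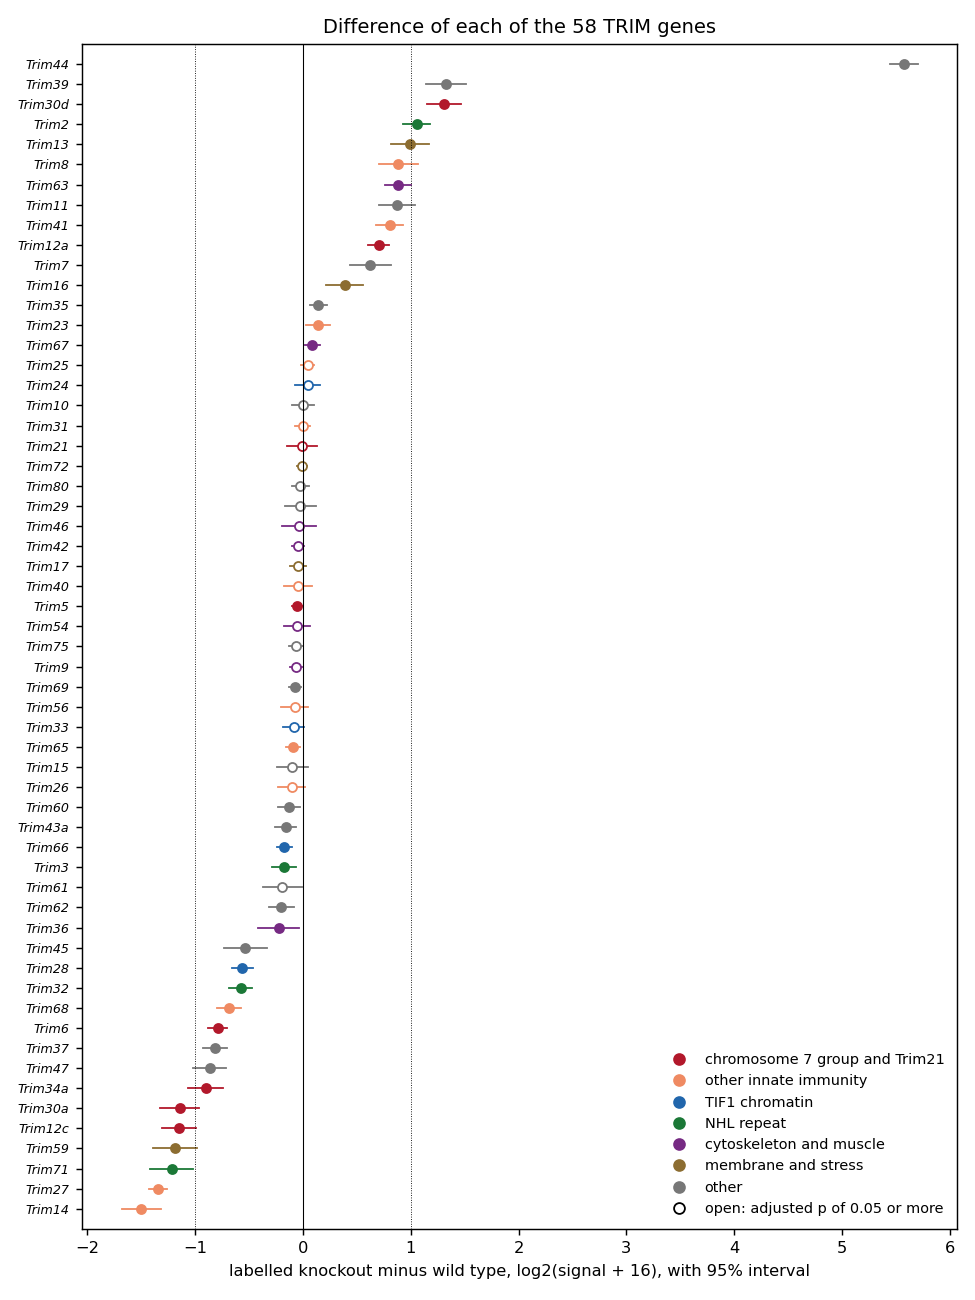
Difference between the arrays labelled knockout and wild type for each of the 58 TRIM genes on log2(signal + 16), with the 95% interval of the limma fit (3 arrays per group), coloured by role and open where the adjusted p was 0.05 or more. Trim44 stands at 5.57 while the others lie between -1.499 and 1.33; dotted lines mark 2-fold.

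The best known antiviral members form a tight group on mouse chromosome 7. Its promoters are shown first because some of them carry an interferon-linked motif. Of the genes that carry it, Trim30d rose on its representing probe set, Trim12c and Trim30a fell, and Trim5 was dim. Between Trim6 and Trim30d the RefSeq annotation of GRCm38.p6 lists 11 protein-coding genes, of which 7 were measured, all of them TRIM genes: Trim6, Trim34a, Trim5, Trim12a, Trim12c, Trim30a and Trim30d, in this order. Promoter sequence was listed for 47 of the 58 TRIM genes. The core of the interferon-stimulated response element was searched on either strand as GAAA, any 2 bases and GAAA again. It lay within 250 bases before a start of 5 of the 47, or 10.6%. Over all 14452 measured genes with a listed promoter the share was 3.13%. These 5 were Trim5, Trim12c, Trim30a and Trim30d in the chromosome 7 group and Trim26 on chromosome 17. Promoters within the group are much alike, as given below, so its matches are not separate cases. The gamma-interferon motif TTCNNNGAA was held by 4 of 47 (8.51%) and by 7.42% of all. A match is a description of the letters, not of a bound site.

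The 250 bases upstream of the start are shown for Trim30a (GRCm38.p6, chr7:104465194-104465443, minus strand) and Trim30d (chr7:104507850-104508099, minus strand), neighbours whose signals went opposite ways. Trim30a has a further listed start (window chr7:104446126-104446375), which held no match and is not shown. Capitals mark the response element core, which reads as its reverse complement on the gene's strand.
Trim30a: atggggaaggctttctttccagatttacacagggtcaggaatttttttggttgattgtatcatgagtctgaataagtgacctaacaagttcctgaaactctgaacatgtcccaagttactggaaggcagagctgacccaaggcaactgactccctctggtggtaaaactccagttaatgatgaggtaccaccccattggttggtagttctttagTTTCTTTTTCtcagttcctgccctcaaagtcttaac
Trim30d: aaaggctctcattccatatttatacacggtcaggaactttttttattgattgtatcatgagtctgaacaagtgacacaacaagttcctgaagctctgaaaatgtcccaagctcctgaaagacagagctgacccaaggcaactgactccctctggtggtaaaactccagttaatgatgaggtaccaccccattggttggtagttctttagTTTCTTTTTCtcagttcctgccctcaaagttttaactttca

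In a global alignment 227 of 255 columns of these promoters were identical (89.0%), and the motif with its 10 flanking bases on each side was the same in both. The promoters of Trim12c and Trim5 were 81.5% identical and those of Trim12c and Trim12a 69.3%; no match was found in the listed Trim12a window. The 30-base windows around the motif of Trim12c (chr7:104353359-104353388, minus strand) and Trim5 (chr7:104288136-104288165, minus strand) are set side by side because Trim12c fell while Trim5 stayed dim.
Trim12c: agagttgtggTTTCTGTTTCatttccagct
Trim5: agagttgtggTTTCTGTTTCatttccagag

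Within the chromosome 7 group the representing probe sets of 5 genes passed as lower and of 2 as higher. Among the 5, Trim34a has a second probe set that rose and Trim5 differed by 0.020 under poly-A spike scaling. Over all genes 35.5% passed as lower and 24.2% as higher, shares that also stand beside the counts of the small classes below. Trim30a, an interferon-induced member that restrains NF-kB signalling, had signals of 130.2, 107.4 and 111.8 in wild type and 40.7, 45.3 and 45.5 on arrays labelled knockout. The groups stood well apart, and the fall was 1.14 ± 0.082 on the log2 scale (SE, n = 3 each; limma adjusted p = 7.6e-08). The other Trim30a probe set fell further, from 155.6 ± 9.83 to 24.4 ± 3.70 (SD, n = 3 each), a difference of -2.09. Trim30d, whose promoter is nearly the same, went the other way: its signals were 13.4, 15.4 and 13.3 in wild type and 55.5, 62.6 and 57.3 on arrays labelled knockout. Wild-type arrays were at the median of all values and every array labelled knockout was above them, a rise of 1.31 ± 0.072 (limma adjusted p = 5.85e-09). The dim second Trim30d probe set showed no call, and the mean of both probe sets rose by 0.68.

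Trim12c, a mouse counterpart of the human retroviral restriction factor TRIM5, had signals of 72.2, 70.0 and 69.3 in wild type and 21.8, 24.6 and 22.8 on arrays labelled knockout. All wild-type values were above all others, a fall of 1.15 ± 0.072 on the log2 scale (limma adjusted p = 2.1e-08), and its other probe set fell too, from 52.4 to 22.8. Its neighbour Trim12a rose by 0.70 on 1 probe set, dim in wild type, from 3.73 ± 1.01 to 16.1 ± 1.34 (SD, n = 3 each), while its other probe set was at 7.12 and 6.92. With the less specific probe set types (suffix x, s or a) dropped, that second probe set stands for Trim12a, at -0.013 (limma adjusted p = 0.741). Trim6, which builds unanchored ubiquitin chains in interferon signalling, fell from 18.3 ± 1.42 to 3.84 ± 0.375 (-0.79). Trim5 was dim, at 3.32 and 2.61, a difference of -0.054 (limma adjusted p = 0.0335) that was 0.020 under poly-A spike scaling.

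The probe sets of Trim34a disagreed. The brighter was at 39.7 ± 4.53 in wild type and 13.8 ± 1.15 on arrays labelled knockout, a fall of 0.90 (limma adjusted p = 2.76e-07). The other had 9.64 ± 2.04 and 38.8 ± 0.272, a rise of 1.10 (SD, n = 3 each; limma adjusted p = 5.03e-08 over all probe sets). Neither pair of groups overlapped, and the mean of both was 0.099 (limma adjusted p = 0.181), so no direction is given for Trim34a as a gene. Trim21, a cytosolic receptor for antibody-coated viruses that lies apart from the group on the same chromosome, was level on its representing probe set, at 115.0 ± 3.41 and 114.6 ± 6.56. Its other probe set went from 88.3 ± 4.42 to 45.0 ± 3.64, a difference of -0.78 (limma adjusted p = 8.61e-07 over all probe sets). Members of this group are close paralogs, and 5 probe sets listed for several genes, 4 of them for pairs within this group, were left out; whether the remaining probes also catch a neighbour's transcript was not tested.

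**Figure D2:**
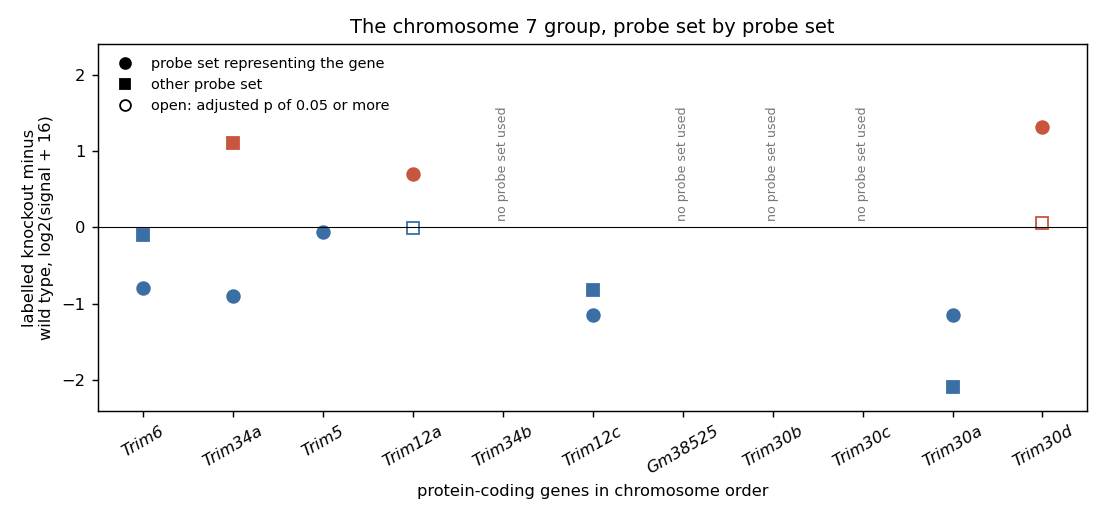
Difference of every single-gene probe set of the chromosome 7 group, from Trim6 to Trim30d, on log2(signal + 16), labelled knockout minus wild type (3 arrays each). The genes are in chromosome order, red for higher and blue for lower. Both Trim30a probe sets lie below 0 (-1.14 and -2.09), those of Trim30d at 1.31 and, not called, 0.055, and the Trim34a pair splits to -0.90 and 1.10.

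Among 12 further members with a role in innate immunity 3 rose, 4 fell and 5 did not pass. Trim14, which lacks a RING and serves as a mitochondrial adaptor of viral RNA sensing, had signals of 49.7, 65.4 and 58.1 in wild type and 9.88, 10.5 and 9.64 on arrays labelled knockout. The wild-type arrays were all higher, and those labelled knockout were under the median of all values. The fall of 1.499 ± 0.082 (SE, n = 3 each; limma adjusted p = 5.62e-09) was the largest among the TRIM genes on these probe sets and this scale; with probe sets averaged it was 0.78, against 1.62 for Trim30a, and with an offset of 64 it was 0.72, against 1.25 for Trim27.

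Trim27, a RING ligase of endosomes that also curbs innate signalling, was bright, with signals of 1103, 1085 and 1062 in wild type and 406.6, 430.1 and 417.2 on arrays labelled knockout. The groups were far apart, a fall of 1.34 ± 0.039 (limma adjusted p = 1.63e-11). All 4 of its probe sets above the median signal fell, and the gene was at -0.62 with the types of suffix x, s or a dropped and at -0.74 with probe sets averaged. Trim68, dim on arrays labelled knockout, fell from 20.8 ± 0.733 to 6.85 ± 1.37 (-0.69). Trim8, a regulator of cytokine and NF-kB signalling, rose from 70.0 ± 7.63 to 142.6 ± 12.8 (0.88), and Trim41 rose from 128.8 ± 8.33 to 236.7 ± 4.42 (0.80), with its second probe set at 1.51 (SD, n = 3 each).

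Several other ligases are tied to the sensing of viral nucleic acid. Trim25, which ubiquitinates RIG-I, was at 6.09 and 6.79, below the median signal in both groups (limma adjusted p = 0.181), and its other probe sets were dimmer still. Trim65, which acts on MDA5, was at 5.64 and 4.30, a difference of -0.092 (limma adjusted p = 0.0211) that was 0.018 under poly-A spike scaling. Trim56 was at 200.03 ± 7.29 and 189.3 ± 11.8, and Trim26 at 138.6 ± 5.89 and 127.9 ± 3.54, neither past the threshold (limma adjusted p = 0.289 and 0.146). Their 95% intervals ran from -0.20 to 0.050 and from -0.23 to 0.022. Trim23, whose ADP-ribosylation factor domain binds GTP, was at 229.1 ± 9.02 and 254.2 ± 9.31 and passed at 0.14 (limma adjusted p = 0.029), but was at -0.12 under hybridization spike scaling and at -0.28 with chromosomes centred. Trim31, dim in both groups, and Trim40 did not pass (limma adjusted p = 0.984 and 0.532).

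**Figure D3:**
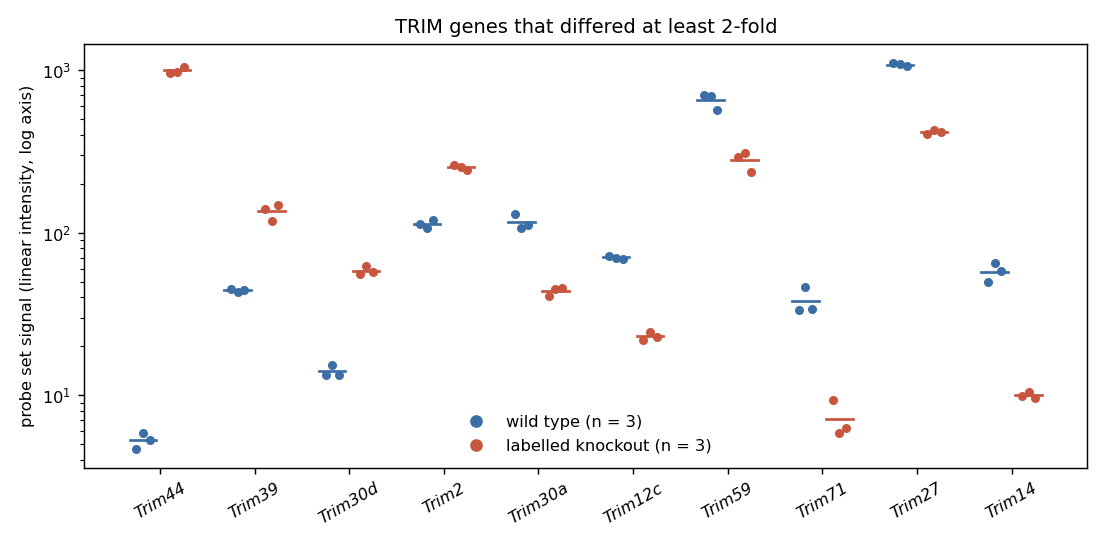
Signal (linear intensity, logarithmic axis) of the 10 TRIM genes that differed at least 2-fold, on each of the 3 wild-type arrays (blue) and the 3 labelled knockout (red), with dashes at the group means. In none of the 10 do the groups overlap; Trim44 goes from 5.29 to 996.9 on average, and Trim14 from 57.7 to 9.99.

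Trim44 showed the largest difference of the family. It is an atypical member that lacks a RING and carries a zinc finger of the kind found in ubiquitin proteases. Its signals were 4.70, 5.85 and 5.32 on the wild-type arrays and 966.8, 977.4 and 1046 on those labelled knockout. The gene was thus at the floor in every wild-type array and bright in every array labelled knockout, a rise of 5.57 ± 0.059 on the log2 scale (SE, n = 3 each; limma adjusted p = 4.58e-15). Its other probe sets also rose, from 3.96 to 22.1 and from 10.1 to 36.7, so that the average of all 3 probe sets was 2.50.

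The neighbours of Trim44 on chromosome 2 were examined because its signal was at the floor in 1 group. Of the 5 measured protein-coding genes on either side, Fjx1, the next on 1 side, rose from 10.8 ± 1.53 to 129.1 ± 17.3 (2.43), and Pamr1 beyond it from 8.75 ± 0.755 to 24.9 ± 0.729 (0.73). On the other side Ldlrad3 was bright in both groups, at 157.8 ± 5.68 and 121.5 ± 4.66, a difference of -0.34 that was 0.084 under poly-A spike scaling. Commd9 rose by 0.61 and Prr5l fell by 0.74. On the Fjx1 side Cd44, at 1031 and 915.2, was at -0.17, or 0.29 under poly-A spike scaling. Pdhx beyond it was at -0.34, or 0.079 under poly-A spike scaling. Slc1a2, beyond Pamr1, was at 13.1 and 12.9 and did not pass, so that Trim44 and the next 3 measured genes on that side were all under the median signal in wild type. Traf6 (42.7 and 49.7) and Rag1 (2.49 and 2.33) did not pass either.

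**Figure D4:**
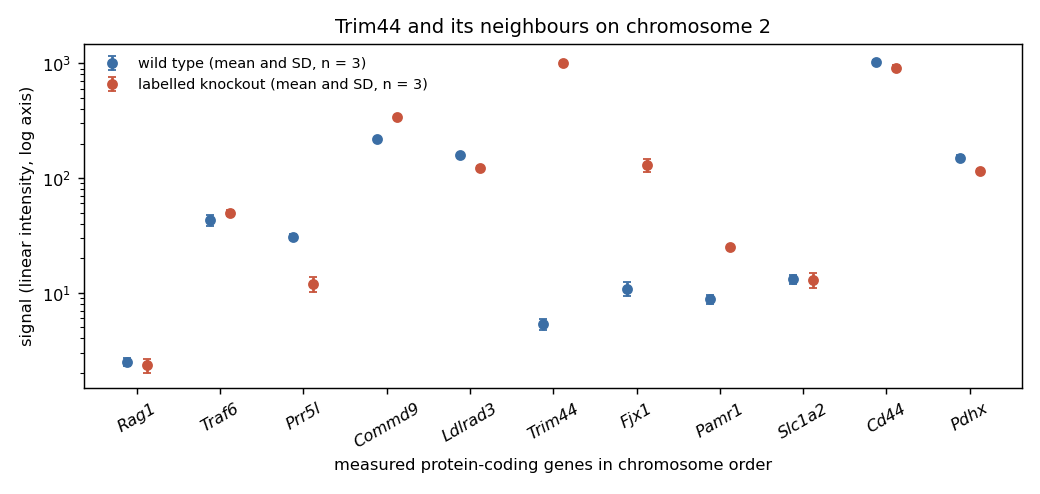
Mean signal (linear intensity, logarithmic axis) with SD of Trim44 and the 5 measured protein-coding genes on each side of it, in chromosome order, in wild type (blue) and on arrays labelled knockout (red), n = 3 each. Trim44 and Fjx1 are much higher on arrays labelled knockout, while Ldlrad3 and Cd44 differ by -0.34 and -0.17.

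The 4 members with NHL repeats, which bind RNA or cargo proteins, split into 1 rise and 3 falls. Trim2, a ligase of neurofilaments in axons, had signals of 113.4, 106.3 and 119.3 in wild type and 261.4, 252.2 and 242.1 on arrays labelled knockout, with no overlap. Its rise was 1.06 ± 0.057 (limma adjusted p = 5.19e-09), and all 5 of its probe sets above the median signal rose. Trim71, the Lin-41 protein of pluripotent and embryonic cells, had signals of 33.6, 46.4 and 34.1 in wild type and 9.37, 5.90 and 6.31 on arrays labelled knockout. It was above the median signal in wild type only, and the fall was 1.21 ± 0.091 (limma adjusted p = 1.17e-07). Its second probe set fell by 0.74. Trim32, known from a limb-girdle muscular dystrophy, fell from 280.6 ± 3.89 to 182.8 ± 7.82 (-0.58), but differed by -0.14 after poly-A spike scaling (adjusted p = 0.148) and by 0.069 with chromosomes centred. Trim3 was at -0.18, and at 0.26 under poly-A spike scaling.

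Of the 4 chromatin-bound TIF1 members 2 fell, neither by 2-fold, and 2 did not pass. Trim28, the corepressor KAP1 that silences retroelements through KRAB zinc finger proteins, had signals of 1835, 1878 and 1996 in wild type and 1332, 1254 and 1269 on arrays labelled knockout. The groups did not overlap and the fall was 0.56 ± 0.043 (limma adjusted p = 1.44e-07), but under poly-A spike scaling the difference was -0.094 with an adjusted p of 0.352. Trim33, a ligase of Smad4 in TGF-beta signalling, was at 363.7, 361.8 and 379.8 against 344.3, 337.0 and 356.8. These lie close together, a difference of -0.087 that did not pass (limma adjusted p = 0.111), while its other bright probe set was at -0.30 (limma adjusted p = 0.000853 over all probe sets). Trim24, a nuclear receptor coregulator and ligase of p53, differed by 0.045 (95% interval -0.073 to 0.16). Trim66, dim in both groups at 6.23 and 3.71, passed at -0.17 (limma adjusted p = 0.000371) and missed the threshold under poly-A spike scaling at -0.063.

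Of 5 members tied to membranes and stress 2 rose and 1 fell. Trim59, anchored in the endoplasmic reticulum and linked to proliferation, had signals of 704.0, 692.1 and 568.7 in wild type and 294.2, 307.2 and 237.9 on arrays labelled knockout. The third array of each group was the lowest, yet the groups did not overlap, and the fall was 1.18 ± 0.093 (limma adjusted p = 1.84e-07). Its second probe set fell only from 164.8 to 140.1 (-0.21), and the average of both was -0.70. Trim13, which degrades proteins of the same membrane, rose from 31.8 ± 3.38 to 79.0 ± 4.08 (0.99), and Trim16, a responder to damaged lysosomes, from 22.9 ± 1.62 to 34.9 ± 4.63 (0.39; SD, n = 3 each). Trim17 and Trim72 did not pass.

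Of 7 members that bind the cytoskeleton or belong to muscle, Trim63, the muscle ligase MuRF1, rose from 5.33 ± 1.44 to 23.3 ± 0.963 (0.88). Of 5 muscle markers none rose and 2 fell, Des from 78.1 to 40.7 and Myog, near the floor, from 5.60 to 4.57. The Myog difference was -0.070, or 0.044 under poly-A spike scaling. Myod1, Actc1 and Myf5 did not pass, with means of 2.14 to 4.58. Trim67 passed at 0.088 but was at 0.010 under hybridization spike scaling (adjusted p = 0.799), and Trim36 passed at -0.22 but was at 0.043 under poly-A spike scaling (adjusted p = 0.674). On these probe sets the groups overlapped for both. The second Trim36 probe set went from 20.6 to 12.2 without overlap, a difference of -0.38 (limma adjusted p = 0.000514 over all probe sets). Trim9, Trim42, Trim46 and Trim54 did not pass; their differences lay between -0.064 and -0.034, and 3 of these 4 were below the median signal in both groups.

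The remaining 18 members, Trim44 among them, gave 5 rises and 7 falls. Trim39, a ligase of regulators of apoptosis and the cell cycle, had signals of 45.1, 43.1 and 44.4 in wild type and 140.8, 117.4 and 148.5 on arrays labelled knockout, with no overlap. It rose by 1.33 ± 0.084 (limma adjusted p = 2.31e-08) on its single probe set. Trim11 rose from 54.2 ± 2.83 to 112.4 ± 9.79 (0.87) and Trim7, first found as a partner of glycogenin, from 23.8 ± 3.43 to 45.3 ± 4.40 (0.62).

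Trim37, a ligase of peroxisomes and centrosomes, had signals of 373.3, 391.0 and 361.5 in wild type and 216.1, 201.3 and 201.7 on arrays labelled knockout. The groups did not overlap, the fall was 0.82 ± 0.049 (limma adjusted p = 1.47e-08), and 4 of its 5 probe sets above the median signal fell. Under poly-A spike scaling it fell by 0.37. Trim47 fell from 219.9 ± 7.62 to 113.9 ± 12.5 (-0.86, or -0.44 under poly-A spike scaling), and Trim45, a member with a filamin-type domain, from 90.5 ± 10.4 to 57.6 ± 5.33 (-0.53; SD, n = 3 each), or -0.15 under poly-A spike scaling with an adjusted p of 0.201. Trim35 was nearly level, at 1024, 1039 and 999.1 against 1127, 1138 and 1122. Its other bright probe sets were at -0.0097 and, from 16.7 to 48.5, at 0.98. The difference of 0.14 passed (limma adjusted p = 0.00406) but was -0.13 under hybridization spike scaling and -0.40 with chromosomes centred.

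The smaller calls of this group were Trim62 (-0.20), Trim43a (-0.16), Trim60 (-0.13) and Trim69 (-0.072), each between 0.031 and 0.068 under poly-A spike scaling. Trim10, Trim15, Trim29, Trim61, Trim75 and Trim80 did not pass, with differences from -0.19 to 0.0015.

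**Figure D5:**
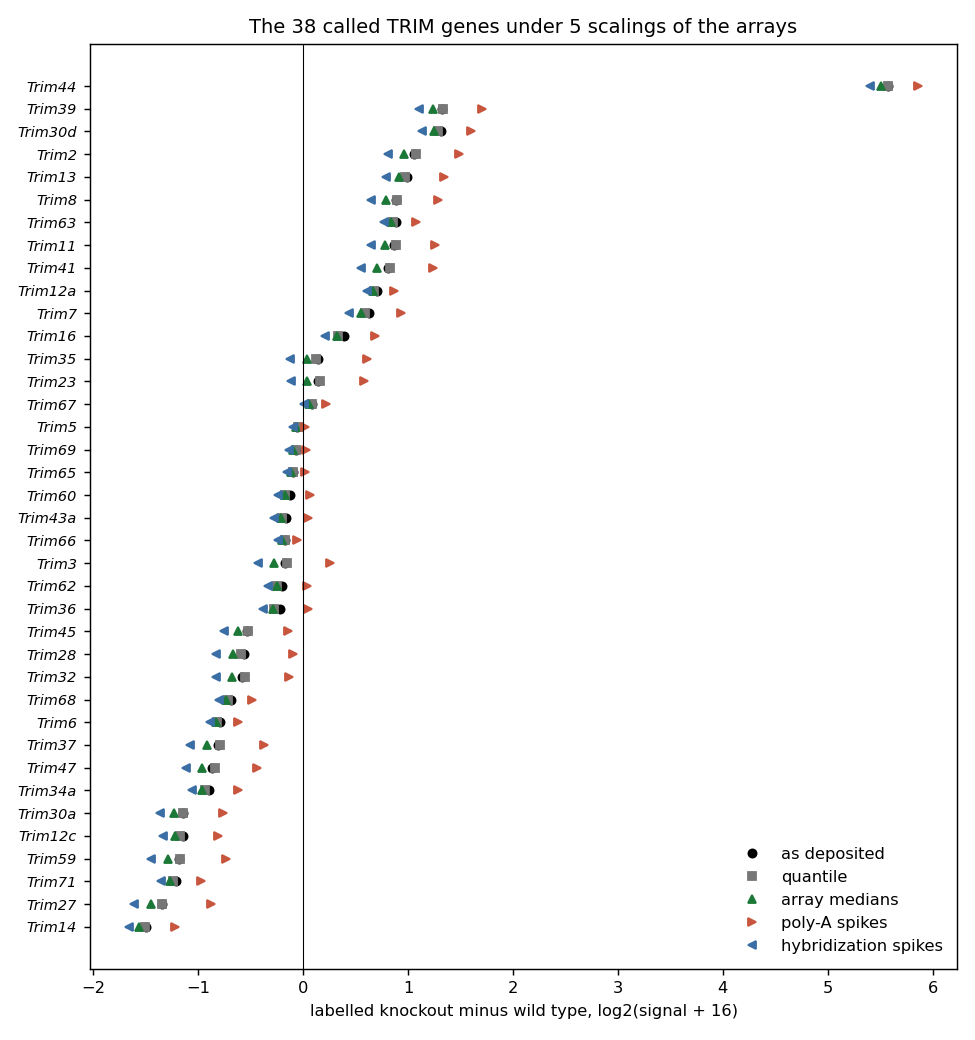
Difference of the 38 TRIM genes past an adjusted p of 0.05, on log2(signal + 16), labelled knockout minus wild type, as deposited and under 4 other scalings of the arrays. Poly-A spike scaling moves most genes up and hybridization spike scaling down, with Trim28 going from -0.56 to -0.094 and -0.83; those far from 0, such as Trim14 and Trim2, stay on their side.

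Of the 19 TRIM genes with at least 2 probe sets above the median signal, all such probe sets were called the same way for 11, and for 1, Trim34a, calls pointed in opposite directions. How often probe sets of all genes were called the same way was not analysed here, so these counts have no background. A total of 27 TRIM genes had a single probe set and could not be compared in this way.

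The genes that work with TRIM proteins were read from lists chosen with earlier results of these data known, and their counts stand beside 59.7% of all genes called and a median of -0.031 over all genes. The counts of calls holding under all scalings have no such share over all genes beside them. Of 10 measured partners in the sensing of viral nucleic acid 6 fell and 3 rose, 5 of the 9 calls holding under all scalings. The transcription factor Irf7 fell by 4.41, the adaptor Sting1 by 3.23, the sensor Ifih1 (MDA5) by 2.46 and Ddx58 (RIG-I), the target of Trim25, from 275.5 ± 29.5 to 66.9 ± 0.487 (-1.81; SD, n = 3 each; limma adjusted p = 2.5e-10). Ikbkg, the NEMO subunit of the kinase that activates NF-kB, rose by 1.01. The median of this list was -0.41. Of 10 interferon receptor and signalling genes 6 fell and 2 rose, 4 holding under all scalings: Irf9, a subunit of the factor that binds the response element, fell by 1.66 and the receptor Ifngr2 by 0.99, while Ifngr1 rose by 1.53 and the kinase Tyk2 by 0.43. Its median was -0.25. The summed signals of the 10 leukocyte markers, which mark cells that also express these genes, were 191.2 to 209.5 in wild type and 490.6 to 538.5 on arrays labelled knockout, mostly from Cd14. Of these markers 2 rose, 1 fell and 7 did not pass, and Ptprc was at the floor in both groups (2.59 and 2.64). The part of such cells in the results was not tested.

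All 12 listed Ube2 genes, of ubiquitin-conjugating enzymes and their variants, passed, 6 in each direction, but only 4 held under all scalings. These were Ube2d2a, which pairs with many RING ligases and rose from 633.7 ± 41.95 to 1798 ± 30.2 (1.48), Ube2d1 (0.44), Ube2e2 (0.51) and Ube2v2 (-0.69), and the list median was -0.016. Of 10 partners of the TIF1 members 3 rose and 5 fell, with 4 holding: Smad3 rose by 2.08 and the remodeller Chd3 by 0.64, and the heterochromatin protein Cbx1 and the zinc finger protein Zfp57 fell by 0.88 and 0.64; the median was -0.13. Among 6 measured relatives with other symbols 2 rose and 3 fell, with a median of -0.11. Mid1, the microtubule-bound ligase of Opitz syndrome, rose from 6.12 ± 0.603 to 40.2 ± 9.53 (1.33) and its paralog Mid2 by 0.55. Pml, the organizer of nuclear bodies, was at -0.51, or -0.082 under poly-A spike scaling, Fsd1 fell by 0.76, Bspry passed at -0.14 but was dim at 6.96 and 4.86, and Mefv did not pass.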

How the data were processed

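Total RNA was labelled with biotin, per the labels' protocols. The authors deposited linear signal intensities, 1 per probe set and array; MAS5 is named in the submitters' processing notes, and its scaling is not given in the sources used here. Of 45101 probe sets, 34945 had 1 gene symbol, 34741 of which matched RefSeq genes (GRCm38.p6) by Entrez number. Signals were transformed as log2(signal + 16). A gene was represented by the probe set with the highest mean log2 value, and the table of 18193 genes was fitted whole with limma 3.58.1 in R 4.3.3 (lmFit, eBayes with trend), two-sided, adjusted by Benjamini-Hochberg at 0.05. The fit was tested on simulated data. The number of arrays limits the precision; no detection calls were used. Members, roles and lists were chosen with earlier results of these data known. All members are reported; those past 0.05 with a 2-fold change or among the 5 highest group means are given array by array. Alternatives were offsets, scalings, probe set rules, variance model, block, chromosome centring and leaving out arrays. Motifs were searched on both strands; promoters were aligned with Biopython 1.88 (match 1, mismatch 0, gap -1). Figures used Matplotlib 3.10.9. Protein sequences were not used here.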

Additional observations from a re-analysis of the deposited data

How the results depend on the processing

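All alternatives were run on the same 6 arrays; the choice of probe set by linear mean was added after seeing the data. Of the 38 called TRIM genes, 21 kept direction and call under every alternative that gave them a value. The same share over all called genes was not analysed here. The counts of rises, falls, 2-fold rises, 2-fold falls and the median were 15, 23, 4, 6 and -0.058. Under poly-A spike scaling they were 31, 11, 9, 1 and 0.13, a reversed median; hybridization spike scaling gave 39 falls and a median of -0.18. An offset of 1 gave 9 rises of 2-fold and a median of -0.11, and an offset of 64 gave 1 such rise, 2 such falls and a median of -0.019. Averaging probe sets left 1 fall of 2-fold. The median was -0.076 with quantile normalization, -0.099 with arrays centred on the median, -0.092 without dim genes, -0.046 with probe sets of suffix x, s or a dropped and -0.050 with chromosomes centred. Directions of single genes turned under poly-A spike scaling for Trim5 (0.020), Trim69 (0.031), Trim65 (0.018), Trim60 (0.068), Trim43a (0.049), Trim3 (0.26), Trim62 (0.035) and Trim36 (0.043), and for 16 uncalled genes, Trim33 (0.36) among them; under hybridization spike scaling for Trim35 (-0.13) and Trim23 (-0.12); with chromosomes centred for Trim35 (-0.40), Trim23 (-0.28) and Trim32 (0.069); with probe sets averaged for Trim34a (0.099); and with suffix x, s or a dropped for Trim12a (-0.013). The cause was not tested. Spike scalings moved the median of all genes from -0.031 to 0.11 and -0.13. By linear mean, Trim30a is represented by its other probe set (-2.09). Leaving out 1 array ended 7 calls, of Trim5, Trim23, Trim36, Trim60, Trim65, Trim67 and Trim69 (limma adjusted p 0.0538 to 0.188 where lost), each of the 6 arrays ending at least 2, and turned none. All 20 uncalled members passed under at least 1 alternative, so no direction is given for them. With replicate number as a block, 15 rose and 23 fell, Trim60 losing its call (adjusted p = 0.0529). The labels do not say that the numbers pair the samples. Correlations of same-numbered deviations were low, at 0.038, 0.11 and 0.16, but 6 of 6 arrays matched their own number best. Whether arrays of the same number shared a step thus stays unknown.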
